A study of Mus musculus with 3 samples.

Results

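The regions described here are 429 narrow stretches of ubiquitinated histone H2A (H2AK119ub) at promoters in the tongue epithelium of newborn mice, among 7838 regions of the first replicate. They were chosen by values of the data themselves: a region of the replicate 1 list entered when it was of the promoter class, carried exactly 1 gene name, was under 5000 bp wide and overlapped a region of the replicate 2 list by at least 1 bp. The chromatin came from control mice at postnatal day 0, whose EpCAM-stained cells were sorted from tongues cut so that the posterior circumvallate papillae were left out; EpCAM is an epithelial surface protein. The 2 H2AK119ub libraries, described as biological replicates of basal lingual epithelial cells, form 1 group. An input library also belongs to the study and was not analysed here. No mutant or treated mice were included, the labels give no allele for the controls, and they do not say whether tongues of several pups were pooled. Each list gives mm10 positions, a location class and gene names without read counts or heights, so sequencing depth is unknown here. A list of this kind holds no expression values, so the identity of the sorted cells could not be checked from it.

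H2AK119ub is placed on nucleosomes by the Ring1 and Rnf2 ubiquitin ligases of Polycomb repressive complex 1. Variant forms of the complex with Kdm2b are recruited to CpG islands, stretches of DNA rich in unmethylated CG pairs at many promoters, and broad domains of the mark lie over silent developmental regulator genes. In skin and oral epithelium the complex is known for keeping genes of other lineages silent.

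The 429 regions were 15.9% of the 2701 promoter regions of replicate 1 and 2.29% of the length that its regions covered. Their genes had 420 distinct names, and 9 genes had a pair of such regions. By the RefSeq gene table of GRCm38.p6, 393 regions were named for protein-coding genes, 27 for long noncoding RNAs, 5 for microRNAs, 2 for transcribed pseudogenes and 1 for the telomerase RNA, while 1 name was not matched. On X lay 9 of them (2.10%). The overlap with replicate 2 was part of the choice: of all promoter regions of replicate 1, 73.7% overlapped a replicate 2 region, and of the 774 single-gene promoter regions under 5000 bp, 429 did (55.4%).

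The 6 promoter sequences printed here show the kinds of promoter that these regions accompany, each from 250 bases before to 50 bases after a start site of the gene, from RefSeq in GRCm38.p6. CG pairs are in capitals, and the start site is base 251. The first 3 belong to the regions with the highest overlap between replicates for which a sequence was at hand, and in each the narrow region lay to 1 side of the start site. Vezf1 (chr11:88068029-88068328, plus strand) encodes a zinc finger transcription factor of blood vessels and had 51 CG pairs in its 300 bases. Fam71e1 (chr7:44496345-44496644, plus strand) had 29, and Spire2 (chr8:123332463-123332762, plus strand), which encodes an actin nucleator, had 31.
Vezf1: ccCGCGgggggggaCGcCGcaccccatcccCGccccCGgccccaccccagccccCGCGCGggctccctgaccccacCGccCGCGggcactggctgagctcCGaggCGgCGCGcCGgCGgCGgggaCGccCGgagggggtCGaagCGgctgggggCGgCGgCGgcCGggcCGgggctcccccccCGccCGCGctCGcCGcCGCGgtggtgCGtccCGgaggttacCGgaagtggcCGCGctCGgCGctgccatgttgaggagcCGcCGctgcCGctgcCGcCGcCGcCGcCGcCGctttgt
Fam71e1: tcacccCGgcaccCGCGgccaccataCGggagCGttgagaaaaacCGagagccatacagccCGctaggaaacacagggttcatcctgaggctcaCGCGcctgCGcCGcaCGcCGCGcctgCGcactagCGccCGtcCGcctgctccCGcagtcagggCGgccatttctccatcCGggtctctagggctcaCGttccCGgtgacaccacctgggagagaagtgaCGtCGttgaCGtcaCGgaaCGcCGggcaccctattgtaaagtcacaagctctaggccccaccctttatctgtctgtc
Spire2: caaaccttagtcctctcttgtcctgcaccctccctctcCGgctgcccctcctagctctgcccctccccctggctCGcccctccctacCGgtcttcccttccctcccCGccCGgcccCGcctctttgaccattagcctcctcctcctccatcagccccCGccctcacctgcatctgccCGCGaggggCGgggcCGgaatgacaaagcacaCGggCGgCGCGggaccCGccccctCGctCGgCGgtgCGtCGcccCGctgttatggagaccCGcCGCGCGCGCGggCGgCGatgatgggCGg

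The other 3 were chosen after their values were seen. Sspn (chr6:145933872-145934171, plus strand), the gene of sarcospan in the dystrophin complex, had 8 CG pairs, and Klf1 (chr8:84901732-84902031, plus strand), the gene of an erythroid transcription factor, had 3. At both genes the regions of both replicates lay over the start site. Flvcr2 (chr12:85746289-85746588, plus strand), which encodes a membrane transporter, had 24 CG pairs and was flanked in replicate 1 by a narrow region on either side.
Sspn: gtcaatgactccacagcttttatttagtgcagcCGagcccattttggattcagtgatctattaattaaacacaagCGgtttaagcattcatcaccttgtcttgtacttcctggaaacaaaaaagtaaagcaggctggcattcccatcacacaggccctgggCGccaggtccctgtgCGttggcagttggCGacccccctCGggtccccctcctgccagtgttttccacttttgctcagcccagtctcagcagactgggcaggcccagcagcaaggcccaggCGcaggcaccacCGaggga
Klf1: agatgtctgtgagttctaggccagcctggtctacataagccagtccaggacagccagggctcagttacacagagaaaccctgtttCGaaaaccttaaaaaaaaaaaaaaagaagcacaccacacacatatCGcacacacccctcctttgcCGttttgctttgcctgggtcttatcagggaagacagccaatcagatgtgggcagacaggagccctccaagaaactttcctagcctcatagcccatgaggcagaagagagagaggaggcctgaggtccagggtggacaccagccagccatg
Flvcr2: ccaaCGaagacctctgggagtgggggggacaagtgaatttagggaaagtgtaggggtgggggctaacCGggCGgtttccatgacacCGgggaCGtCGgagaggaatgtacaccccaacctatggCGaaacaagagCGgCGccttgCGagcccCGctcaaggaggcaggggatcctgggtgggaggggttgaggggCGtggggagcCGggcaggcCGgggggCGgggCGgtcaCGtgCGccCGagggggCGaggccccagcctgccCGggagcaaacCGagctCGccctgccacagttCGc

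The first question was how well the narrow regions held in the second library. The gene assignment held in most cases: a replicate 2 promoter region with the same gene name overlapped 405 of the 429 (94.4%, with an exact 95% binomial interval of 91.8 to 96.4%), against 90.9% of all 1564 shared single-gene promoter regions. The rest met a region of the gene body or distal class, or a promoter region with another name. Binomial intervals here cover counting error over regions, which are not biological replicates.

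The extent held less well. The median width was 3280 bp in replicate 1 (quartiles 2343 and 4097 bp), where it was limited by the choice, and 3740 bp in replicate 2 (2420 and 5628 bp). In replicate 2, 293 regions (68.3%, 63.7 to 72.7%) stayed under 5000 bp and 25 (5.83%) reached 10 kb. Replicate 2 covered a median of 87.0% of a region's length, and 115 regions (26.8%) lay wholly inside a replicate 2 region. At least 50% of both regions was shared at 256 of the 429 (59.7%, 54.9 to 64.4%), against 66.0% of all shared single-gene promoter regions. The median Jaccard overlap, the bases in both replicates over the bases in either, was 0.535.

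Which regions counted as narrow depended on the replicate that was read first. By the same rule turned round, 491 of 850 narrow single-gene promoter regions of replicate 2 overlapped replicate 1, and their median widths were 3114 bp in the replicate 2 list and 4525 bp in the replicate 1 list. Of those, 369 (75.2%) were wider in replicate 1, while 254 of the 429 (59.2%) were wider in replicate 2. Of the 420 genes, 261 (62.1%) entered by both readings, each of which asked for the promoter class and 1 gene name as well as the width. Within the 429 regions, the rank correlation of the widths in the 2 lists was 0.20 (Spearman's coefficient across regions, which are not independent). The choice held the replicate 1 widths under 5000 bp, and such a limit lowers a rank correlation. The coefficient therefore does not measure how well width held over all regions.

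**Figure D1:**
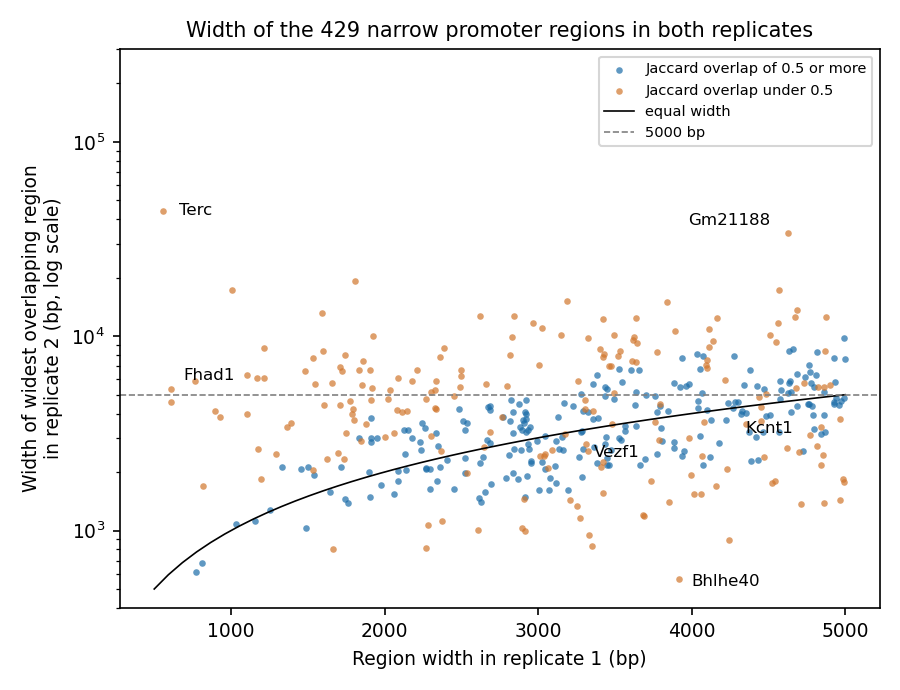
Width of each of the 429 narrow regions in replicate 1 (x axis, bp) and of the widest replicate 2 region that overlaps it (y axis, bp, log scale), with colours for Jaccard overlap and a line for equal width. Kcnt1 and Vezf1 lie on the line, while Terc measured 554 bp in replicate 1 and 44205 bp in replicate 2.

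The regions with the highest overlap had almost the same edges in both libraries. Kcnt1, which encodes a sodium-activated potassium channel, was marked over chr2:25874788-25879057 in replicate 1 (4269 bp) and chr2:25874752-25879038 in replicate 2 (4286 bp), a Jaccard overlap of 0.987. The Vezf1 region measured 3279 and 3228 bp (0.984), that of Fam71e1 2090 and 2033 bp (0.973) and that of Spire2 4994 and 4830 bp (0.967). Also among them were Pirt, a regulator of sensory neuron ion channels, with 4576 and 4752 bp (0.963), and Elavl2, a neuronal RNA-binding protein, with 1034 and 1080 bp (0.957). The others of the first 10 were the endocytic receptor gene Lrp1 (2142 and 2057 bp), the chromatin remodelling subunit gene Bcl7a (4039 and 4249 bp), Sspn (2931 and 2781 bp) and Wipf1 (1896 and 1995 bp), whose protein binds the actin regulator WASP. The Jaccard overlap was at least 0.946 in these 10, which were chosen for it.

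At the other end stood regions that were narrow in replicate 1 alone. Terc, the telomerase RNA gene, had 554 bp in replicate 1 and a region of 44205 bp in replicate 2 that also named Gm26689. That replicate 2 region overlapped a second replicate 1 region as well, and the 2 together measured 40308 bp, so the Terc region was a short piece next to a wide one. Trmt61a, a tRNA methyltransferase gene, had 1809 bp against a 19156 bp region that overlapped 3 replicate 1 regions of 17284 bp in sum. Gm21188 (4630 and 33902 bp), the zinc finger gene Zfp316 (1009 and 17216 bp), the galactokinase gene Galk1 (3842 and 14954 bp) and the bZIP repressor gene Nfil3 (4683 and 13722 bp) likewise had a second replicate 1 region under the replicate 2 region. Islr (4569 and 17237 bp) and Npdc1 (3188 and 15170 bp) did not, so there the replicate 2 region was wider with no other replicate 1 region beneath it. Of the 25 replicate 2 partners of 10 kb or more, 12 overlapped another replicate 1 region, and of all 429 partners 42 did (9.79%).

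The limit of 5000 bp had no gap around it. The widest regions inside it included those of Wdr6 (4988 bp), Spire2 (4994 bp), the creatine synthesis gene Gamt (4995 bp) and the metalloprotease gene Mmp25 (4998 bp). Just outside lay Stum (5015 bp), the Fgf receptor gene Fgfr4 (5036 bp), the somatostatin receptor gene Sstr1 (5037 bp), the mitochondrial transhydrogenase gene Nnt (5040 bp) and the claudin gene Cldn23 (5041 bp). The narrowest after Terc were Fhad1 (608 bp in replicate 1 and 5372 bp in replicate 2), the cytokine gene Il17c (609 and 4572 bp), the phosphatase gene Acp5 (765 and 5867 bp) and the kinase gene Pomk (770 and 614 bp). Only the last of these 4 was also under 1 kb in replicate 2.

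The second question was where the regions lay against the start of their gene, which the choice did not use beyond the authors' promoter class. Start sites with strand came from the RefSeq promoter table, which holds 316 of the 382 regions named for protein-coding genes outside chromosome 18 (82.7%). Where a gene had several start sites, the nearest to the region was taken. The start site lay inside the region at 115 of 316 promoters (36.4%, 31.1 to 42.0%). At 108 the region lay wholly upstream (34.2%) and at 93 wholly downstream (29.4%). Regions beside the start site ended a median of 756 bp from it (quartiles 376 and 1243 bp), and 309 of the 316 (97.8%) contained a start site or came within 2 kb of one. The promoter class was part of the choice, so this nearness is no independent result. The farthest region lay 633038 bp from the nearest listed start site and was still counted as downstream. With the limit at 3000 bp in place of 5000 bp, the start site lay inside 23.4% of the regions.

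The regions covered positions to either side of the start site more often than the start site itself. In replicate 1, 47.8% of the 316 promoters were marked at 1500 bp upstream, 36.4% at the start site and 49.7% at 1500 bp downstream. In replicate 2, counting every region of its list, 56.3% were marked at 1500 bp upstream and 55.7% at 1500 bp downstream, while 158 of the 316 start sites (44.4 to 55.6%) were inside a region. The 345 narrow single-gene regions without a replicate 2 partner, of which 259 of 309 had a start site by the same criteria, had 42.9%, 23.6% and 45.9%. The dip thus stood in both libraries and in regions of either kind; replicate 2 is no independent test of it, since the members had to overlap there.

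**Figure D2:**
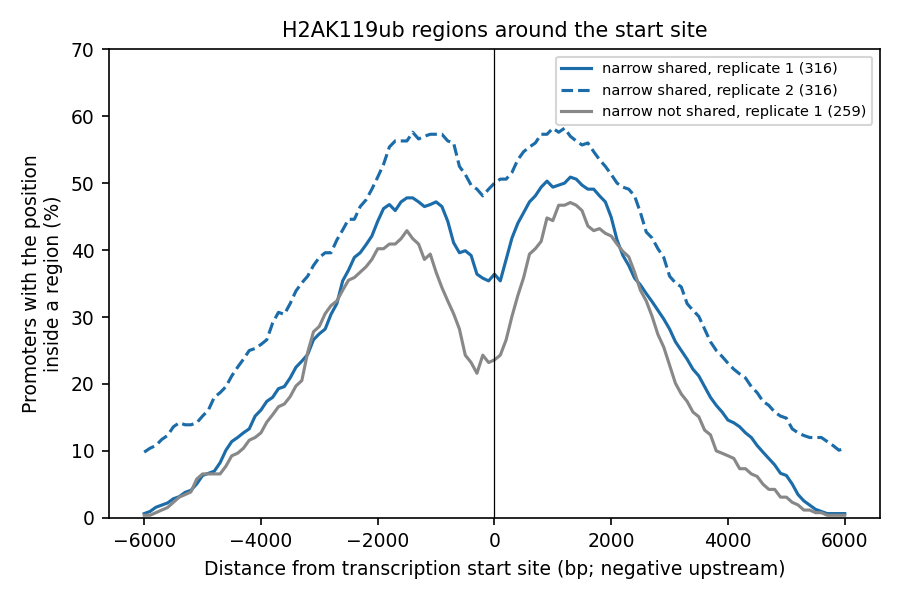
Share of promoters at which a position lies inside an H2AK119ub region (y axis, %), by distance from the start site (x axis, bp, negative upstream), for the narrow shared regions in replicate 1 and replicate 2 (316 promoters) and for narrow regions without a partner (259 promoters). All 3 lines dip at the start site, to 36.4% in replicate 1 of the shared regions.

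Single genes show the pattern. Positions are given in bp from the start site, negative upstream. The Vezf1 region (chr11:88063762-88067041) ran from -4517 to -1238 bp in replicate 1 and from -4498 to -1270 bp in replicate 2. The region of the stress kinase gene Map3k5 ran from -4767 to -1292 bp in replicate 1 and from -3948 to -1355 bp in replicate 2, and that of Lrp1 from -3412 to -1270 bp and from -3359 to -1302 bp. On the other side, the Fam71e1 region (chr7:44496916-44499006) ran from 321 to 2411 bp in replicate 1 and from 369 to 2402 bp in replicate 2, and that of Spire2 (chr8:123332901-123337895) from 188 to 5182 bp and from 240 to 5070 bp. Regions of Klf1 (chr8:84899405-84902797 in replicate 1) spanned the start site in both, from -2577 to 815 bp in replicate 1 and from -3025 to 761 bp in replicate 2. The same held for Sspn (chr6:145932169-145935100), from -1953 to 978 bp and from -1820 to 961 bp.

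**Figure D3:**
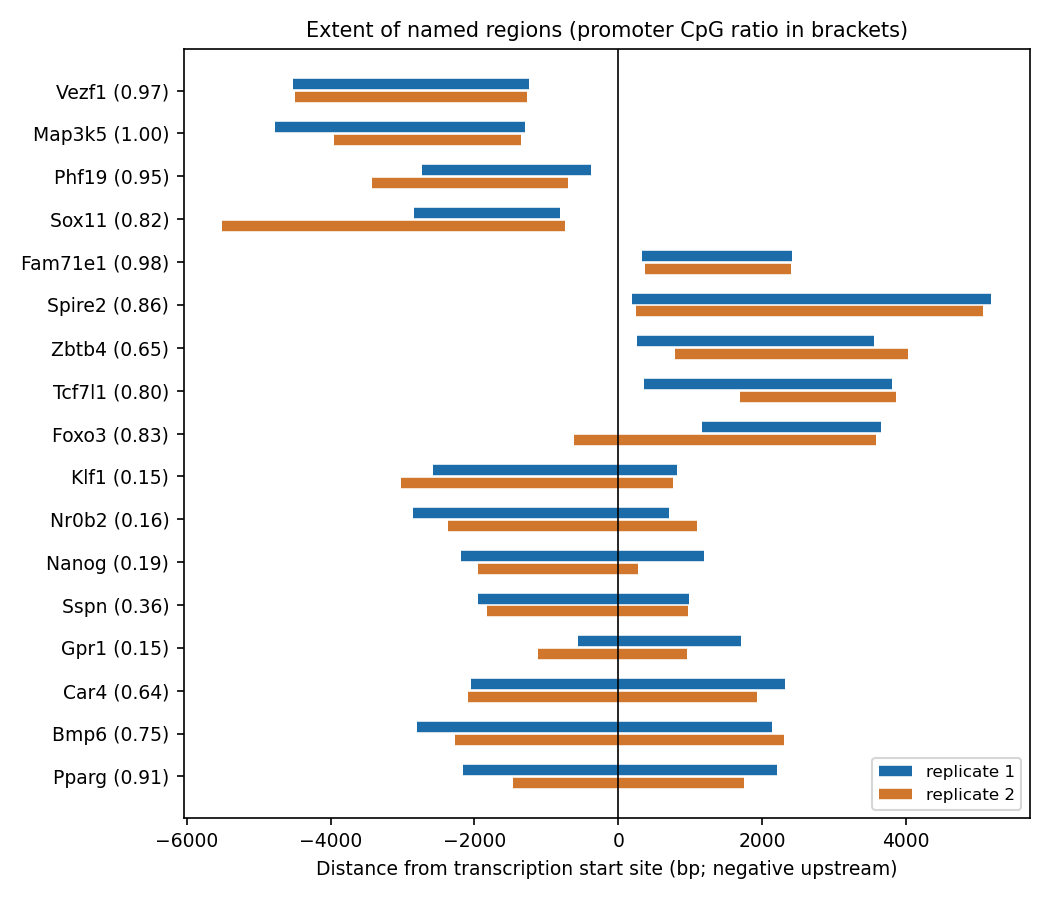
Extent of the regions of 17 named genes in replicate 1 and replicate 2 (bars) by distance from the start site (x axis, bp, negative upstream), with the promoter CpG ratio of each gene in brackets. The 2 bars of Vezf1, Map3k5 and Spire2 stay on 1 side of the start site, and those of Klf1, Nr0b2 and Nanog cross it.

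A partner has to overlap its region, so for a region beside the start site it could lie on the same side or cross, but never lie wholly on the opposite side. Of the 201 regions beside the start site in replicate 1, the widest replicate 2 partner lay on the same side at 135 (67.2%) and crossed the start site at the others. Of the 115 over the start site, 92 (80.0%) were over it in replicate 2 as well. Over both libraries, the start site lay inside at 92 of 316 promoters (29.1%), outside at 135 (42.7%) and inside in 1 library alone at 89 (28.2%).

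Of the 9 genes with a pair of narrow regions, 5 had them on either side of the start site used. At Rora, a nuclear receptor gene, the second region was of the promoter class but lay 633038 bp downstream of the nearest listed start site. At the other 4 genes both regions were near the start site. Flvcr2 had regions from -2834 to -998 bp and from 170 to 2666 bp in replicate 1, while 1 region of 6682 bp spanned both in replicate 2. Srgn, the gene of the proteoglycan serglycin, had them from -3243 to -917 bp and from 603 to 2640 bp, with 1 replicate 2 region of 5274 bp. Mcub, the gene of an inhibitory subunit of the mitochondrial calcium channel, had them from -4745 to -1737 bp and from 333 to 5098 bp, with 1 replicate 2 region of 7089 bp. At Frat1, an activator of Wnt signalling, the gap stood in both libraries: the replicate 1 regions of 1333 and 3518 bp met separate replicate 2 regions of 2119 and 7872 bp, of which the first ended at -658 bp and the second began at 361 bp.

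The third question was whether the CpG content of the promoter went with this placement. The CpG ratio is the number of CG pairs over the number expected from the C and G content, and values above 0.6 are typical of CpG islands. The median over the 316 member promoters was 0.66 (0.616 to 0.702), against 0.565 over 17492 protein-coding genes with a promoter sequence. The ratio was above 0.6 at 180 of the 316 (57.0%, 51.3 to 62.5%), against 47.5% of all. In the narrow regions without a partner it was above 0.6 at 65.3% (59.1 to 71.0%). Members took the start site nearest to their region, a rule that cannot apply to reference genes without a region. The comparison with the reference is therefore not fully like for like, and the effect of the start-site rule on it was not tested.

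Regions that lay over the start site belonged to promoters poorer in CpG than regions beside it. The median ratio was 0.516 (0.436 to 0.612) where the region lay over the start site, against 0.754 (0.679 to 0.817) where it lay upstream and 0.702 (0.635 to 0.764) where it lay downstream. Among promoters above 0.6, the start site was inside at 48 of 180 (26.7%, 20.4 to 33.8%), and among the others at 67 of 136 (49.3%, 40.6 to 58.0%). In replicate 2 the same start sites were inside a region at 78 of 180 (43.3%, 36.0 to 50.9%) and at 80 of 136 (58.8%, 50.1 to 67.2%), so that the intervals touched there. Narrow regions without a partner had 27 of 169 (16.0%, 10.8 to 22.4%) and 34 of 90 (37.8%, 27.8 to 48.6%). In replicate 1 the median width was 3422 bp (3093 to 3524 bp) above 0.6 and 3181 bp (3008 to 3449 bp) at or below it. By placement it was 3564 bp (3385 to 3891 bp) over the start site, 3018 bp upstream and 3093 bp downstream, so placement went with width in a set that was chosen on width. With the limit at 3000 bp, the start site was inside at 15.1% of promoters above 0.6 and at 34.5% of the others.

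**Figure D4:**
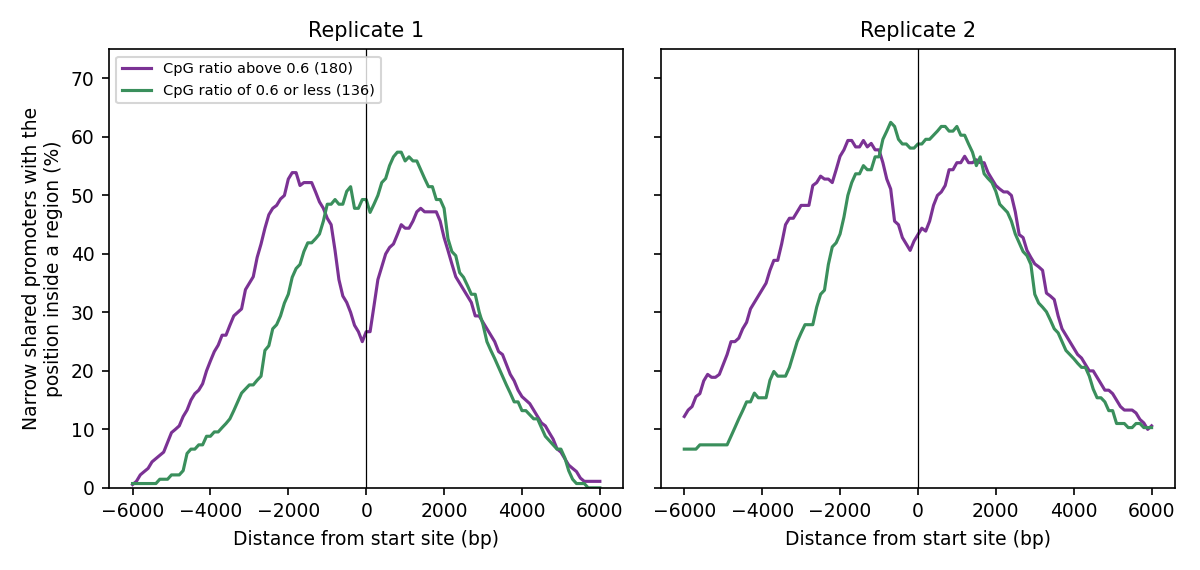
Share of the narrow shared promoters at which a position lies inside a region (y axis, %), by distance from the start site (x axis, bp), for promoters with a CpG ratio above 0.6 (180) and of 0.6 or less (136), in replicate 1 (left) and replicate 2 (right). At the start site the lines stand at 26.7% and 49.3% in replicate 1 and at 43.3% and 58.8% in replicate 2.

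Along the promoter, CpG-rich promoters had a lower share at the start site than at 1500 bp to either side, and the others did not. Above a ratio of 0.6, replicate 1 marked 52.2% at 1500 bp upstream, 26.7% at the start site and 47.2% at 1500 bp downstream. At or below 0.6 the shares at the same positions were 41.9%, 49.3% and 52.9%. In replicate 2 they were 58.3%, 43.3% and 56.1% above 0.6, and 53.7%, 58.8% and 55.1% at or below it. Nearer the start site, at 700 bp upstream and downstream, replicate 2 marked 51.1% and 51.7% above 0.6, and 62.5% and 61.8% at or below it. In replicate 1 the shares there were 35.6% and 41.7% above 0.6, and 48.5% and 56.6% at or below it. The dip against 1500 bp thus came with the CpG-rich class, while in replicate 2 the others had a shallow dip against 700 bp. These differences were not tested.

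Wider promoter regions held an end of the gene, its first or last base, more often. A region that lay within the gene and held neither end was not counted. For this the bounds of the gene in the RefSeq table were used, without strand, since fewer than 80% of the wider regions had a promoter sequence and a check of their start sites or CpG content was void. A gene end lay inside 145 of 428 narrow regions (33.9%, 29.4 to 38.6%), against 77 of 344 narrow regions without a partner (22.4%), 707 of 906 shared single-gene regions of 5 to 20 kb (78.0%) and 203 of 226 of 20 kb or more (89.8%). A wider region holds more positions, so part of this difference follows from width. Neighbours were less frequent than around wider regions: another replicate 1 region lay within 50 kb of 238 of them (55.5%, 50.6 to 60.2%), against 47.8% of the unpaired narrow ones, 64.0% of those of 5 to 20 kb and 77.4% of those of 20 kb or more.

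The fourth question was which genes the narrow regions named, by 24 gene lists. Of the 420 gene names, 108 (25.7%) stood in at least 1 list. The shares are of names of every kind, set beside shares of protein-coding genes in the reference, and no list was tested. The lists go by gene symbol and are not complete. Developmental transcription factors, whose genes lie under broad Polycomb domains in many tissues, made up 6 of the 420 names (1.43%, 0.526 to 3.08%), against 6.59% of the genes of regions of 5 to 20 kb and 28.9% of those of 20 kb or more. In the reference they were 1.57% of protein-coding genes, which lies inside the interval of the narrow regions. The homeobox list misses Meox2, a factor of muscle and skeletal development, found after the values were seen. With the Meox genes added, the counts were 7 of 420 (1.67%, 0.673 to 3.40%) in narrow regions, 6.70% in those of 5 to 20 kb, 28.9% in those of 20 kb or more and 1.58% of protein-coding genes.

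**Figure D5:**
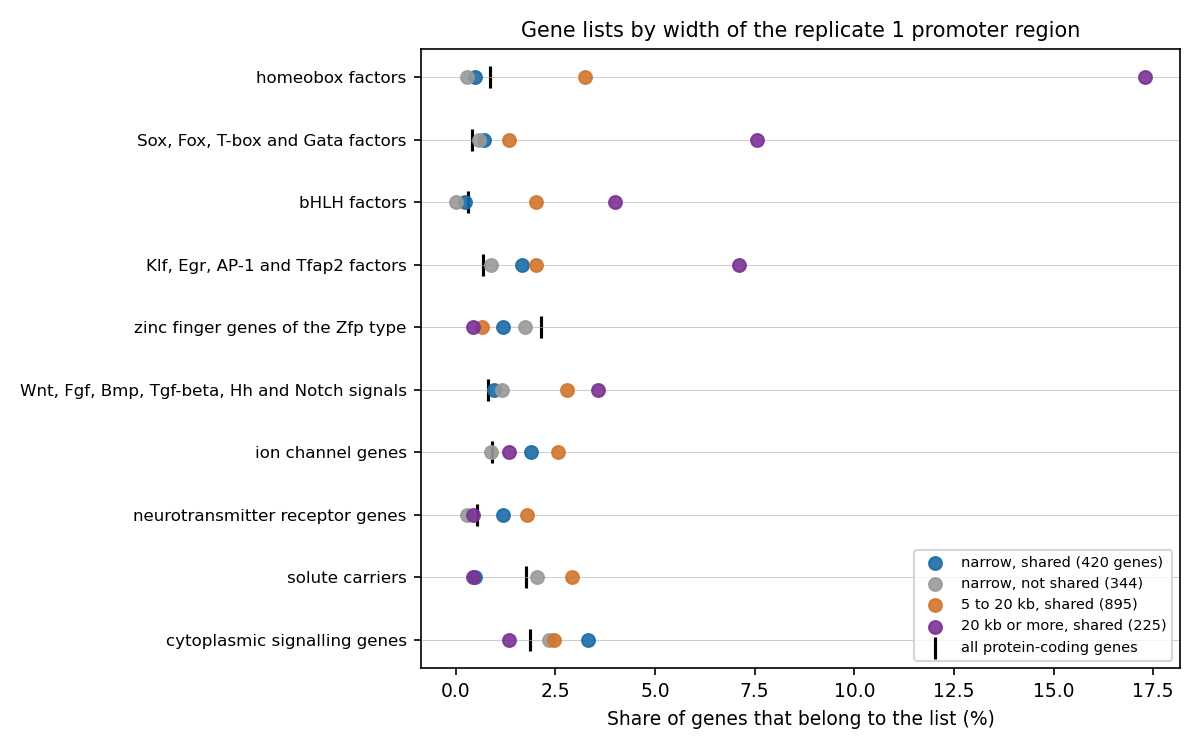
Share of gene names that belong to each of 10 gene lists (x axis, %), for narrow shared regions, narrow regions without a partner and single-gene promoter regions of 5 to 20 kb and of 20 kb or more, with all protein-coding genes as a tick. For homeobox factors the points stand at 0.476% in narrow shared regions and at 17.3% in regions of 20 kb or more.

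The 6 factors of the lists and Meox2 were of several kinds. Meox2 had 2880 bp in replicate 1 and 3409 bp in replicate 2, over the start site in both, with a Jaccard overlap of 0.839. Nanog, the pluripotency factor, was marked over its start site with 3385 bp in replicate 1 and 2236 bp in replicate 2. Pou6f1, a POU factor, had 4544 and 1792 bp, both downstream of the start site. Sox11, a neural and craniofacial Sox factor, had 2023 and 4759 bp, both upstream, ending at -817 and -745 bp. Of the forkhead genes, Foxo3 (2483 and 4207 bp), a factor of stress and survival, had a region downstream of the start site in replicate 1 and over it in replicate 2. Foxn3 (811 and 680 bp), a repressor, had regions over the start site in both. Bhlhe40, a clock and hypoxia repressor, had 3917 bp in replicate 1 and met a gene body region of 560 bp that named another gene in replicate 2. The Jaccard overlap of these 7 genes ranged from 0.839 at Meox2 to 0.143 at Bhlhe40.

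Other transcription factor genes were 7 of the Klf, Egr, AP-1 and Tfap2 list, which also holds nuclear receptors. Klf1 measured 3392 and 3786 bp with a Jaccard overlap of 0.869, and the glucocorticoid receptor gene Nr3c1 2887 and 2606 bp (0.846). Nr0b2, which represses bile acid synthesis genes, measured 3564 and 3449 bp (0.778), and Pparg, the factor of fat cells, 4371 and 3214 bp (0.735). All 7 named the same gene in a replicate 2 promoter region, and 6 shared at least 50% of both regions. Over all 429 regions these shares were 94.4% and 59.7%. Zinc finger genes of the Zfp type were 5, or 1.19% of names against 2.13% of protein-coding genes, among them Zbtb10 (4975 and 4647 bp), Zfp395 (4327 and 4110 bp), Zbtb4 (3283 and 3239 bp), whose protein binds methylated DNA, and Zfp354b (2913 and 990 bp). None of the 3 with a start site had it inside the replicate 1 region, against 36.4% inside among all 316 promoters.

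Of the developmental signals, 4 genes were named (0.952%, against 0.813% of protein-coding genes). The ligand gene Bmp6 had 4927 and 4561 bp over its start site (Jaccard overlap 0.864), and the ligand gene Bmp3 had 3655 and 6689 bp. Tcf7l1, a transcription factor of the Wnt pathway that mostly represses, had 3446 and 2170 bp, both downstream of the start site. Spry2, a feedback inhibitor of Fgf signalling, had 927 and 3856 bp, and both were over the start site, beginning at -56 and -117 bp. Hedgehog and Notch pathway genes of this incomplete list were not among the narrow regions. Kif7, a Hedgehog pathway gene outside the list, was a member with 4627 and 5120 bp (Jaccard overlap 0.882).

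Ion channel genes were 8 (1.90%, against 0.918% of protein-coding genes) and neurotransmitter receptor genes 5 (1.19%, against 0.539%). Regions of 5 to 20 kb had higher shares of both, 2.57% and 1.79%. With so few names, these differences in share were not tested. Besides Kcnt1, the channel genes included Cacng7 (3524 and 6807 bp), Kcng1 (4386 and 2266 bp) and Cnga3 (3206 and 1437 bp), a channel gene of cone photoreceptors. The receptor genes included the serotonin receptor genes Htr2a (2839 and 4085 bp) and Htr4 (4643 and 5902 bp) and the adrenergic receptor gene Adra1b (4142 and 9423 bp). All 13 regions of the 2 lists named the same gene in replicate 2, as did 94.4% of all 429 regions. Guidance and synaptic adhesion genes were Ntng1 (3433 and 4902 bp), the netrin receptor gene Unc5c (4817 and 8281 bp) and Slitrk5 (3359 and 4132 bp), and the replicate 1 region lay over the start site in each. Over all 316 promoters this was so at 36.4%.

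Receptors, transporters and matrix genes followed in small numbers. Gpr75 (2843 and 2638 bp), Gpr1 (2269 and 2065 bp) and the melanocortin receptor gene Mc3r (2335 and 5853 bp) were among the 4 G protein-coupled receptors of the list. Solute carriers were 2, the sugar transporter gene Slc2a6 (2685 and 3213 bp) and the urate transporter gene Slc2a9 (3041 and 2420 bp), or 0.476% of names against 1.77% of protein-coding genes and 2.91% of genes with regions of 5 to 20 kb. The 5 matrix genes were Mmp25 (4998 and 7593 bp), the cartilage gene Matn3 (3435 and 2802 bp), the basement membrane gene Nid1 (3794 and 4493 bp), the mesenchymal gene Postn (1917 and 5443 bp) and Vcan, and in all 5 the replicate 1 region held the start site. The share over all 316 promoters was 36.4%, and the difference was not tested. Pcdhgc3 (3442 and 3015 bp) was the 1 protocadherin.

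Cytoplasmic signalling enzymes, scaffolds and their regulators formed the longest protein-coding list, with 14 genes (3.33%, against 1.86% of protein-coding genes and 2.46% of genes with regions of 5 to 20 kb). The guanine nucleotide exchange factor genes Arhgef19 (4646 and 4082 bp) and Arhgef5 (2948 and 3420 bp) and Map3k5 (3475 and 2593 bp) had Jaccard overlaps of 0.879, 0.862 and 0.746, and the ubiquitin ligase gene Trim25 had 4773 and 6553 bp (0.728). The start site lay inside the replicate 1 region at 2 of the 14, against 36.4% of all 316 promoters. Of 39 noncoding or uncharacterised names (9.29%), the best shared were C330020E22Rik (1257 and 1277 bp), BC051142 (2685 and 2821 bp), Scpep1os (1745 and 1459 bp) and 2510009E07Rik (3539 and 2935 bp). The 5 microRNA genes were Mir5110 (3640 and 7325 bp), Mir7066 (4066 and 2428 bp), Mir6537 (1856 and 5625 bp), Mir3086 (1751 and 3161 bp) and Mir6417 (1216 and 8658 bp).

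Genes that encode Polycomb proteins were 3, or 0.714% of names, against 0.782% for regions of 5 to 20 kb, 0.889% for those of 20 kb or more and 0.183% of protein-coding genes. They were Phf19 (2349 and 2725 bp) and Ezh1 (3999 and 1933 bp) of repressive complex 2, and Phc1 (3331 and 950 bp) of repressive complex 1. None of their replicate 1 regions held the start site, against 36.4% over all 316 promoters. The Phf19 region ended at -381 bp and that of Ezh1 at -1750 bp, and the Phc1 region began at 962 bp. The replicate 2 partner of the Ezh1 region was of the distal class.

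For the epithelium itself the lists were short and the counts small. Of 26 basal keratinocyte genes, 39 genes of differentiated keratinocytes, 109 keratin and keratin-associated genes and 22 Merkel cell genes, 0 were named, nor was any of 11 cell cycle inhibitor genes or 101 ribosomal protein genes. Among 420 names a count of 0 allows a share of up to 0.714% (3 names), and the reference shares of these 6 lists, between 0.0502% and 0.498%, are all below it. Of 36 taste bud genes, 1 was named (0.238% of names, against 0.164% of protein-coding genes), Car4, the carbonic anhydrase with which sour-sensing taste cells detect carbonation. Its region lay over the start site in both libraries, from -2044 to 2310 bp in replicate 1 and from -2087 to 1931 bp in replicate 2 (Jaccard overlap 0.904). Of 40 housekeeping genes, 1 was named (0.238%, against 0.183%), the tubulin gene Tubb5, with 4116 and 8814 bp that began at 1332 and 1354 bp.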

How the data were processed

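H2AK119ub chromatin immunoprecipitation libraries (2 replicates, 1 group) were sequenced on an Illumina instrument, per the labels' protocols. The authors deposited 1 list of regions per replicate, so replicates were not pooled, with other values (first and last coordinates) and no score. Per the submitters' processing notes, the tools include Bowtie2 2.3.3 and SAMtools 0.1.19, listed without their roles, and the build is mm10. How regions were called, whether against the input, from which base coordinates count and how near to a gene a promoter region must lie are not stated in the labels.

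Width is end minus start. Regions overlapped from 1 bp. Gene names were matched by RefSeq symbol, then by a synonym of 1 gene only. Start sites and CpG ratios came from RefSeq promoter sequences (GRCm38.p6, which mm10 also names). Chromosome 18 was not used for those measures, and a property was given only where at least 80% of a set had a value. Shares carry exact 95% binomial intervals and medians order-statistic intervals. With 1 group, and members taken from the same lists, no test was made. The functions were tested on simulated data.

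Lists of protein genes took only names that RefSeq gives as protein-coding. Members and lists were chosen with earlier results of these data known. Named genes were the 10 regions with the highest Jaccard overlap, the 5 narrowest, the 5 widest and the 5 just outside the limit, the 8 with the widest replicate 2 partner, and per list up to 4 genes with the highest Jaccard overlap. Some genes that this rule names are not reported here. Gene pairs, microRNAs, Vcan, Meox2, Kif7 and the genes drawn by start site were chosen after their values were seen. Start-site measures were added after the data were seen. The versions were matplotlib 3.10.9, pandas 2.3.3, scipy 1.17.1 and numpy 2.4.6, under Python 3.11.15.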

Additional observations from a re-analysis of the deposited data

How the results depend on the processing

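For 12 results, 85 values were computed under other settings. Of these, 68 stayed within the interval of the reported value (for the count of regions, within 1.5 times it) and 17 moved beyond it. The number reversed was 0, but a count, share or median of 1 group has no direction to reverse. With a width limit of 4000 bp, 73.0% of regions were under 5000 bp in replicate 2, whose median width was 3297 bp. With 3000 bp, 182 regions were left: 76.4% were under 5000 bp in replicate 2, the median width there was 3287 bp, the covered length 91.8%, the share with a neighbour within 50 kb 50%, and the start site lay inside 23.4% of regions, 15.1% at CpG ratios above 0.6 and 34.5% at the others. A lower limit leaves shorter regions by construction. When at least 50% of both regions had to be shared, 256 remained, 80.5% under 5000 bp in replicate 2, with a median of 3287 bp there. The start-site settings were chosen after seeing the data. Leaving out genes with 2 or more promoter regions gave 49.9% with a neighbour within 50 kb. With replicate 1 or replicate 2 left out in turn, and so with no overlap asked for, 774 to 850 regions entered; the start site lay inside 30.6% without replicate 2, and measures that need both lists gave no value. Without replicate 1, fewer than 80% of regions had a promoter sequence, so start sites and CpG ratios gave no value there. No paired analysis was possible because there is 1 group of 2 replicates and the input was not analysed here. Without heights or read counts, the strength of a region and the depth behind it are unknown.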

Other observations

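The nearest replicate 1 region of 20 kb or more lay a median of 1075798 bp from a narrow region (quartiles 305734 and 3309093 bp), against 1270381 bp for narrow regions without a partner and 744166 bp for shared single-gene regions of 5 to 20 kb. Within 50 kb of such a domain lay 25 of the 429 (5.83%), 18 of the 345 without a partner (5.22%) and 89 of the 909 of 5 to 20 kb (9.79%). The protein-coding genes of narrow regions had a median length of 29509 bp (25331 to 34767 bp), against 31250 bp for those without a partner, 24732 bp for genes of regions of 5 to 20 kb, 20184 bp for genes of regions of 20 kb or more and 17146 bp over all protein-coding genes.

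The TATA box letters TATAAA, searched on both strands of the 300 bases, stood in 17 of the 316 member promoters (5.38%) and in 9 of the 115 whose region lay over the start site (7.83%), against 13.3% of 17492 promoters. The median GC content was 60.8% in the member promoters and 56.3% in the reference, and these letters hold no G or C. The shares were not adjusted for this, and the difference was not tested. The rule of the nearest start site, used for members, cannot apply to reference genes without a region, so these comparisons are not fully like for like. A match is a description of the sequence, not of a site in use.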
